A study of Mus musculus with 12 samples.

Results

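The unfolded protein response and the integrated stress response were followed here through 10 genes: Atf4, Ddit3, Trib3, Asns, Psat1, Chac1, Sesn2, Hspa5, Xbp1 and Herpud1. They were chosen by gene name as readout genes of these pathways, with earlier results of these data known. They are 10 of the 53801 genes in the table, and all 10 lay above the minimum level for a test. The samples are 12 tumours that grew from LLC cells, a transplantable lung carcinoma line of the mouse, in the flanks of female C57BL/6 mice aged 6 to 8 weeks. All mice had received the cells in Matrigel in each flank, and injections into the peritoneum began when a tumour reached 100 mm3 and were given 2 times per week for 4 weeks. The groups are vehicle (tumours 2, 3 and 5 by their labels), cisplatin, a platinum compound that damages DNA by cross-linking it (tumours 1, 2 and 3), brivanib, which blocks the receptor kinases of the growth factors VEGF and FGF (tumours 2, 3 and 5), and the combination of both drugs (tumours 2, 3 and 4). Each group had 6 mice and 10 to 12 tumours, of which 3 were sequenced. The labels do not tie a tumour to a mouse, so that 2 tumours of a group can share an animal, and p-values cover the spread between these tumours only. The sources used here give no doses.

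In the integrated stress response, kinases that sense amino acid shortage, double-stranded RNA, haem shortage or misfolded protein phosphorylate the initiation factor eIF2alpha, which slows translation in general while the mRNA of the transcription factor ATF4 is translated more. ATF4 and its partner CHOP, the product of Ddit3, then switch on genes for amino acid supply, redox balance and feedback control. In the unfolded protein response, the sensors PERK, IRE1 and ATF6 respond to misfolded protein in the endoplasmic reticulum (ER): PERK acts through eIF2alpha, IRE1 cuts an intron out of Xbp1 mRNA, and ATF6 is released as a transcription factor for chaperones such as Hspa5. Solid tumours are known for poor supply of oxygen and nutrients, both of which feed into these pathways.

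Promoter sequences of the members are shown because the pathways meet their targets there. RefSeq promoters on GRCm38.p6, from 250 bases before to 50 bases after a gene's start, were found for 10 of 10 members in 11 entries. On both strands, 4 motifs that do not overlap each other in the members were searched. TGATGNAA, the core of the element bound by ATF4 with C/EBP proteins, was present in Asns, Trib3, Chac1 and Herpud1 and in 3.97% of 32851 promoters of the same length. The ER stress response element (CCAAT and CCACG with 9 bases between) was present in Hspa5 and in 0.119% of all promoters. The second ER stress response element (ERSE-II) was present in Herpud1 and in 0.0365% of all promoters. TGACGTGG, the core of the unfolded protein response element, was in none of the 10 members and in 0.676% of all promoters. A match describes the letters and says nothing of binding in these tumours. In the stretches of 100 bases upstream of the RefSeq start below, written 5′ to 3′ along the gene, capitals mark the motif matches, so that Hspa5 can be read beside Herpud1, which holds an element of each pathway, and beside the ATF4 targets Asns and Chac1. Some transcripts in the deposited annotation start upstream of the RefSeq start. In Chac1 and Herpud1 the ATF4 core lies on the opposite strand and reads TTGCATCA.
Hspa5 promoter, chr2:34771980-34772079, plus strand: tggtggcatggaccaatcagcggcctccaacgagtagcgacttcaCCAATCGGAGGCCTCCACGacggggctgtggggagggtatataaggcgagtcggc
Herpud1 promoter, chr8:94386299-94386398, plus strand: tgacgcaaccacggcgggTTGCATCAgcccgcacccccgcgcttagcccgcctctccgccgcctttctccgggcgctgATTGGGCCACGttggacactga
Asns promoter, chr6:7693210-7693309, minus strand: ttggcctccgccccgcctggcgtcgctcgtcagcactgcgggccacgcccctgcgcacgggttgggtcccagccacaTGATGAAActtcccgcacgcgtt
Chac1 promoter, chr2:119351002-119351101, plus strand: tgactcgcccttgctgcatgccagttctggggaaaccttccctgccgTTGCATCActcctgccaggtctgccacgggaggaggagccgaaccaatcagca

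The IRE1 site of Xbp1 is shown because it limits what the table can say of this gene. It lies in exon 4, within the coding region, at chr11:5524282-5524307 on the plus strand of GRCm38. IRE1 removes the 26 bases in capitals, after which the reading frame runs for 371 codons in place of 267.
Xbp1 site, plus strand: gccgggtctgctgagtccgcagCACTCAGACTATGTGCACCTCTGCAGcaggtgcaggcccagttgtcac
Of the 4 transcripts annotated for Xbp1, 3 held the unspliced stretch and 0 held the joined ends, so the FPKM values are total Xbp1 mRNA and give no measure of splicing.

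Levels are given in FPKM, fragments per kilobase of transcript scaled to a fragment total per library, summed over the transcripts of a gene, and values are listed in the order of the tumour numbers given above. The libraries held between 17.161 M and 30.943 M recovered fragments (M, 1e6). Brivanib tumour 5 stood apart, with 37.7% of its fragments from ribosomal RNA and gene models that behaved like it, against 0.234% to 0.609% in the other 11 libraries, and its FPKM values summed to 921510.4 against 471827.7 to 527656.7. Of 6 lung epithelial markers, 3 (Krt18, Nkx2-1 and Sftpc) were listed at 0 in every library and Cdh1 alone had a mean above 1 FPKM (2.03), so the epithelial origin in the label is not visible in these markers.

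None of the 10 genes passed an adjusted p of 0.05 in any of the 8 comparisons. The nearest was Sesn2, the gene of a sensor protein that restrains the growth kinase mTORC1, in the 6 tumours with cisplatin, alone or combined, against the 6 without. Differences are on the scale of log2(FPKM + 1), which understates those of low genes, and carry the standard error (SE) from limma, a linear model fitted to all 12 libraries and 14246 genes. Against vehicle, 0 of 10 members passed with cisplatin, where 0.19% of all genes did, 0 of 10 with brivanib, where 1.81% did, and 0 of 10 with the combination, where 2.34% did. The same count was 0 of 10 for the combination against brivanib (3.87% of all genes), for any cisplatin against none (6.51%), for any brivanib against none (0.519%) and for the interaction, the difference between the effects of brivanib with and without cisplatin (0.14%). For the combination against cisplatin, 0 of 10 members and 0% of all genes passed by limma, while 960 genes, or 6.74%, had an unadjusted p under 0.05 and voom on the recovered fragments called 2 of all genes and 0 members. At such shares a count of 0 of 10 does not show that the members stayed level.

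At an unadjusted p under 0.05, 1 of 10 members differed with cisplatin against vehicle (14.3% of all genes), 0 with brivanib (11.7%), 2 with the combination (18.8%), 2 in the combination against brivanib (21.7%), 2 with any cisplatin (24.8%), 1 with any brivanib (9.93%) and 0 in the interaction (10%) and in the combination against cisplatin (6.74%). These shares lay near those of all genes. Of the 10 differences from vehicle, 10 were above 0 with cisplatin, 4 with brivanib and 9 with the combination. The median difference was 0.16 with cisplatin against 0.07 over all genes tested, -0.02 with brivanib against -0.01, and 0.38 with the combination against 0.04. The 3 comparisons share the vehicle tumours. With other scalings of the libraries, 8 or 9 of the 10 cisplatin differences were above 0, and 9 of the 10 for the combination.

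**Figure D1:**
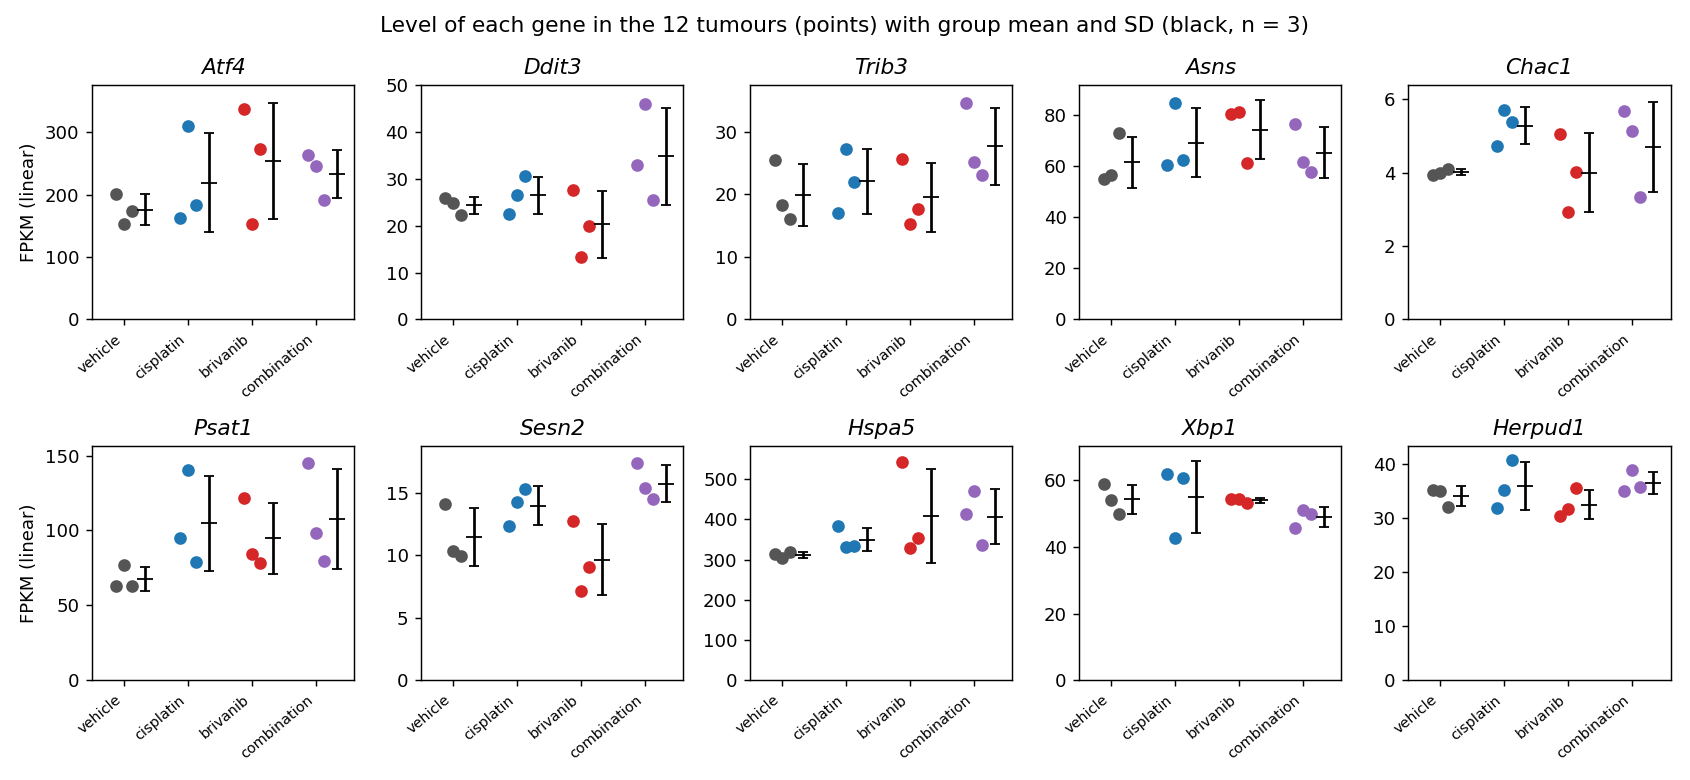
FPKM of the 10 genes (vertical axes, linear, from 0) in vehicle, cisplatin, brivanib and combination tumours; coloured points are tumours and black bars are the group mean and SD (n = 3). For Hspa5 and Psat1 all tumours of the 3 treated groups lie above the vehicle tumours, whereas in Xbp1 and Herpud1 the group means lie close together. Separation above vehicle was seen for 17% of all genes with cisplatin, 8.95% with brivanib and 17.2% with the combination.

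The members covered a wide span of levels. Mean FPKM over the 12 tumours ran from 369 for Hspa5 through 221 for Atf4, 93.7 for Psat1, 67.5 for Asns, 53.1 for Xbp1, 34.7 for Herpud1, 26.5 for Ddit3, 22.3 for Trib3 and 12.7 for Sesn2 to 4.50 for Chac1. The ranges of neighbours in this order overlapped over the 12 tumours except between Atf4 and Psat1, Xbp1 and Herpud1, and Sesn2 and Chac1. Hspa5 lay at percentile 98.9 of all genes tested and Chac1 at 25.9. The highest tumour exceeded the lowest by 1.34 times for Herpud1 and by 3.44 times for Ddit3, the narrowest and widest spans of the 10. The fewest fragments behind a value were 98, for Chac1.

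Among the transcription factors, Atf4 (chr15:80255184-80257541) was at 202, 154 and 174 FPKM in the vehicle tumours, at 163, 311 and 184 with cisplatin, at 337, 154 and 274 with brivanib and at 264, 245 and 191 with the combination. The groups overlapped, and the spread within the brivanib group (255 ± 93.0 FPKM, SD, n = 3) was larger than any difference between group means. The largest difference from vehicle was 0.46 ± 0.29 (SE) with brivanib, with a limma adjusted p of 0.577. Since ATF4 is controlled at translation, its mRNA level is only part of its activity. A transcript with a retained intron took 10.7% of Atf4 FPKM.

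Ddit3 (chr10:127290774-127296288), which encodes the pro-apoptotic factor CHOP, was at 25.9, 24.9 and 22.2 FPKM with vehicle, at 22.6, 26.5 and 30.5 with cisplatin, at 27.6, 13.3 and 19.99 with brivanib and at 32.9, 46.0 and 25.4 with the combination. Combination tumour 3 held the highest value and brivanib tumour 3 the lowest, and the groups overlapped. The combination exceeded brivanib by 0.76 ± 0.24 (95% interval 0.23 to 1.30, limma adjusted p = 0.101), and without brivanib tumour 2 this passed, at 1.004 with an adjusted p of 0.0447. Without brivanib tumour 3 it was 0.51 (adjusted p = 0.199), and without combination tumour 3 it was 0.55 (adjusted p = 0.293). Any cisplatin exceeded none by 0.44 ± 0.17 (adjusted p = 0.144).

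Trib3 (chr2:152337422-152344032), a pseudokinase induced by ATF4 and CHOP that feeds back on them, was at 25.4, 18.3 and 16.1 FPKM with vehicle, at 16.95, 27.3 and 22.1 with cisplatin, at 25.7, 15.3 and 17.6 with brivanib and at 34.7, 25.3 and 23.1 with the combination. The lowest combination tumour lay below the highest tumour of each other group. The combination differed from vehicle by 0.46 ± 0.24 (limma adjusted p = 0.323) and from brivanib by 0.49 ± 0.24 (adjusted p = 0.249), and both intervals included 0.

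Of the amino acid genes, Psat1 (chr19:15904678-15947337), which makes phosphoserine on the path to serine, was lowest in the vehicle group. It was at 62.7, 76.6 and 63.1 FPKM with vehicle, at 95.2, 140.3 and 78.7 with cisplatin, at 122, 84.6 and 78.2 with brivanib and at 145, 98.4 and 79.5 with the combination. All 9 treated tumours lay above all 3 vehicle tumours, though the lowest treated value (78.2) was close to the highest vehicle value (76.6). Such separation upwards was seen for 17% of genes with cisplatin, 8.95% with brivanib and 17.2% with the combination. The difference from vehicle was 0.59 ± 0.25 with cisplatin (limma adjusted p = 0.302), 0.46 ± 0.25 with brivanib (adjusted p = 0.515) and 0.63 ± 0.25 with the combination (adjusted p = 0.201). A transcript with a retained intron took 40.1% of Psat1 FPKM, between 31.7% and 49.7% by tumour. The separation held for the sum of transcripts and not for the main coding transcript alone. There, cisplatin tumour 3 (41.87 FPKM) and combination tumour 4 (38.76) lay below vehicle tumour 3 (41.91).

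Asns (chr6:7675169-7693254), asparagine synthetase and a classical ATF4 target, was at 54.9, 56.5 and 72.9 FPKM with vehicle, at 60.4, 84.6 and 62.4 with cisplatin, at 80.4, 81.3 and 61.1 with brivanib and at 76.4, 61.8 and 57.5 with the combination. The groups overlapped throughout, and no difference between 2 groups exceeded 0.27 ± 0.17 (brivanib against vehicle, limma adjusted p = 0.592).

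Chac1 (chr2:119351229-119354381), which degrades glutathione, was the lowest member. It was at 3.94, 3.99 and 4.10 FPKM with vehicle, at 4.73, 5.71 and 5.39 with cisplatin, at 5.06, 2.92 and 4.01 with brivanib and at 5.66, 5.13 and 3.33 with the combination. The cisplatin tumours lay above the vehicle tumours, a separation that 17% of genes showed. The vehicle tumours lay close together, but the difference of 0.32 ± 0.19 did not pass (limma adjusted p = 0.474). The brivanib and combination groups spread to both sides of vehicle.

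Sesn2 (chr4:132492032-132510501) was at 14.1, 10.3 and 9.95 FPKM with vehicle, at 12.3, 14.3 and 15.3 with cisplatin, at 12.7, 7.14 and 9.05 with brivanib and at 17.3, 15.4 and 14.5 with the combination. The combination tumours lay above all vehicle and all brivanib tumours, a separation upwards that 17.2% and 14.1% of genes showed. The combination differed from brivanib by 0.68 ± 0.19 (95% interval 0.28 to 1.09, limma adjusted p = 0.0644) and from vehicle by 0.43 ± 0.19 (adjusted p = 0.234). Any cisplatin differed from none by 0.48 ± 0.13 (95% interval 0.19 to 0.76, limma adjusted p = 0.0521). The interaction was 0.41 ± 0.26 (adjusted p = 0.658). Without vehicle tumour 2 the difference with any cisplatin passed at 0.55 (adjusted p = 0.0472), and without brivanib tumour 2 it passed at 0.58 (adjusted p = 0.0186), as did the difference from brivanib at 0.88 (adjusted p = 0.0246). Without brivanib tumour 3 the same differences were 0.39 (adjusted p = 0.0679) and 0.51 (adjusted p = 0.126), and with any 1 tumour left out the adjusted p ran from 0.0186 to 0.119 and from 0.0246 to 0.169.

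Markers of other cells moved with these groups. The mean log2(FPKM + 1) of 10 fibroblast markers was 6.29 to 6.58 in brivanib tumours and 4.06 to 5.06 in combination tumours, and that of 14 skeletal muscle markers was 4.12 and 3.88 in brivanib tumours 3 and 5 and at most 1.96 in the other 10. Macrophage markers scored 5.11 to 5.41 with brivanib and 3.25 to 4.90 with the combination, and 8 of 10 were lower there at an unadjusted p under 0.05. Mast cell markers scored 1.74 to 2.63 and 0.43 to 1.04, and 4 of 5 tested fell in the combination against brivanib. Over the 12 tumours the macrophage score had an r of -0.69 with Ddit3 and of -0.58 with Sesn2, and the part of these 2 lists in the difference was not tested. With the muscle score as a covariate, the combination differed from brivanib by 0.47 for Sesn2 (adjusted p = 0.195) and by 0.46 for Ddit3 (adjusted p = 0.312). With the fibroblast score as a covariate, the same differences were 0.64 (adjusted p = 0.806) and 0.15 (adjusted p = 0.972). This covariate was chosen after seeing the data. All brivanib tumours scored above all combination tumours on it, so the score and the group cannot be told apart. Erythroid markers, mostly globins, summed to 4.44 to 99.6 FPKM with cisplatin, to 4.54 to 16.5 with the combination, to 449 to 2939 with brivanib and to 1607 to 3086 with vehicle, and 5 of the 5 tested fell with any cisplatin. Their mean log2(FPKM + 1) had an r of -0.66 with Sesn2 over the 12 tumours. It was at most 3.26 in tumours with cisplatin and at least 4.77 in those without, so this score and cisplatin cannot be told apart. The part of erythroid markers in the Sesn2 result was not tested. In bulk tumours, fewer cells of a type and less RNA per cell cannot be told apart.

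Of the ER genes, Hspa5 (chr2:34771970-34777547), the chaperone BiP that binds and silences the 3 sensors, was at 315, 303 and 318 FPKM with vehicle, at 384, 332 and 334 with cisplatin, at 543, 329 and 353 with brivanib and at 415, 470.3 and 335 with the combination. All 9 treated tumours lay above the 3 vehicle tumours, and brivanib tumour 2 stood highest. Of all genes, 17% were separated upwards in this way with cisplatin, 8.95% with brivanib and 17.2% with the combination. The groups were closest between vehicle tumour 5 (318) and brivanib tumour 3 (329). The difference from vehicle was 0.16 ± 0.18 with cisplatin, 0.35 ± 0.18 with brivanib and 0.37 ± 0.18 with the combination, with limma adjusted p-values of 0.728, 0.494 and 0.299. Any brivanib differed from none by 0.28 ± 0.13 (adjusted p = 0.502), and by 0.17 without brivanib tumour 2.

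Xbp1 (chr11:5520659-5525893), the transcription factor of the IRE1 branch, was at 58.8, 54.2 and 49.9 FPKM with vehicle, at 62.0, 42.7 and 60.7 with cisplatin, at 54.4, 54.5 and 53.1 with brivanib and at 45.6, 51.2 and 50.05 with the combination. Its lowest and highest tumours were both in the cisplatin group. Summed over transcripts, the combination tumours lay below the brivanib tumours, as for 9.14% of genes, with a difference of -0.14 ± 0.13 (limma adjusted p = 0.569). The main coding transcript was not lower, at 38.3, 42.0 and 39.5 FPKM with brivanib and at 38.6, 43.4 and 43.4 with the combination. A transcript with a retained intron was at 11.8, 9.47 and 9.40 with brivanib and at 4.18, 5.03 and 3.55 with the combination.

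Herpud1 (chr8:94386438-94395377), which helps to remove misfolded protein from the ER, varied least. It was at 35.1, 35.1 and 31.96 FPKM with vehicle, at 31.9, 35.1 and 40.7 with cisplatin, at 30.4, 31.5 and 35.5 with brivanib and at 35.0, 38.8 and 35.7 with the combination. No difference from vehicle exceeded 0.10 ± 0.11, and for the combination the 95% interval of -0.13 to 0.33 bounds what these tumours allow. Its 2 main coding transcripts took 56.7% and 30.6% of its FPKM.

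**Figure D2:**
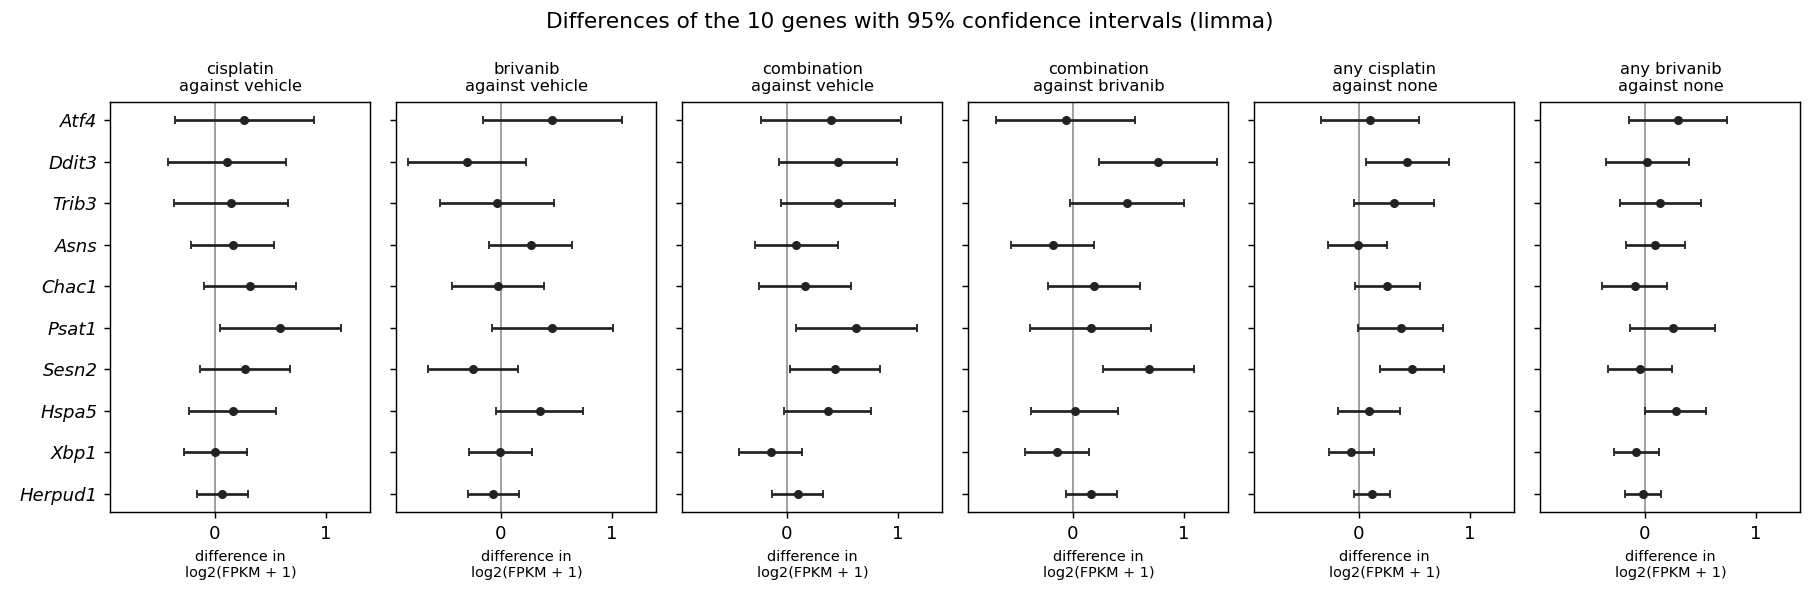
Differences in log2(FPKM + 1) (horizontal axes) of the 10 genes in 6 of the comparisons, with 95% confidence intervals from limma. The intervals of Ddit3 and Sesn2 lie above 0 for the combination against brivanib (0.76 and 0.68) and for any cisplatin against none (0.44 and 0.48), while those of Xbp1 and Herpud1 span 0 in every panel.

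Some tumours were extreme for several members. Brivanib tumour 3 was the lowest of all 12 tumours for 5 members, Atf4, Ddit3, Trib3, Chac1 and Sesn2, and combination tumour 2 was the highest for 3, Trib3, Psat1 and Sesn2. Brivanib tumour 2 was the highest for Atf4 and Hspa5. How often each tumour was the lowest or highest over all genes was not counted, so these counts are not shown to be unusual. The 3 brivanib tumours also differed in other markers: the hypoxia list had a mean log2(FPKM + 1) of 6.88 in tumour 2, 4.90 in tumour 3 and 6.13 in tumour 5, and tumour 3 had the highest adipocyte (3.25) and muscle (4.12) scores of all 12. The part of these markers in the spread of the members was not tested.

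Across the 12 tumours, Pearson's r of log2(FPKM + 1) was 0.85 for Trib3 with Sesn2 and 0.85 for Ddit3 with Sesn2. For the 6 pairs among Ddit3, Trib3, Chac1 and Sesn2 it ran from 0.64 to 0.85, and within groups, after removal of group means, from 0.57 to 0.89. Leaving out the 2 tumours farthest from the median of the first gene of a pair, these 6 values ran from 0.39 to 0.87. The median of all 45 pairs was 0.40. These 4 genes were grouped by no rule set beforehand, and they were not set apart from all other members. Asns had an r of -0.20 with Ddit3, 0.17 with Trib3, 0.26 with Chac1 and -0.14 with Sesn2. For Atf4 the same values were 0.42, 0.67, 0.59 and 0.40. Within groups those of Atf4 were 0.67, 0.81, 0.79 and 0.74, inside the span of the 4 genes. Psat1 had an r of 0.34 with Ddit3, 0.64 with Trib3, 0.65 with Chac1 and 0.43 with Sesn2. Hspa5 had 0.49, 0.44, 0.48 and 0.34, and within groups 0.76, 0.42, 0.74 and 0.60. Xbp1 went the other way with Asns (-0.55), Psat1 (-0.55) and Atf4 (-0.51), and its r with Psat1 was 0.07 without cisplatin tumour 2 and combination tumour 2, on which it rests. These correlations are descriptions over tumours that share library depth and cell makeup.

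**Figure D3:**
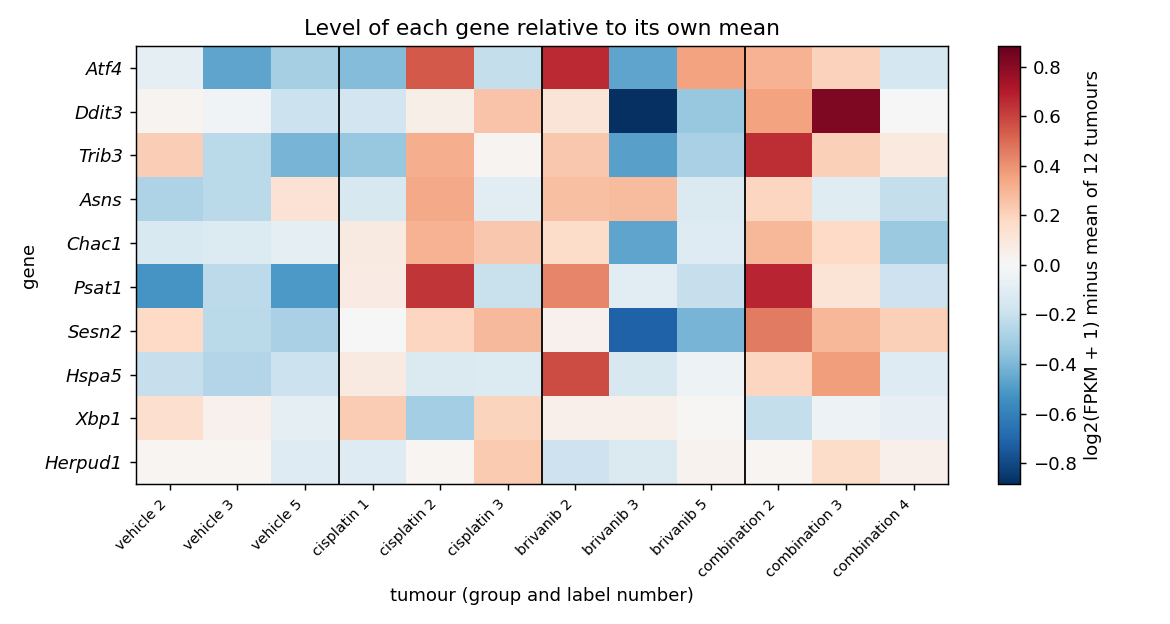
Level of each gene (rows) in each of the 12 tumours (columns) as log2(FPKM + 1) minus its mean over the 12, red above and blue below the mean. Brivanib tumour 3 is blue for Atf4, Ddit3, Trib3, Chac1 and Sesn2, and combination tumour 2 is red for Trib3, Psat1 and Sesn2.

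The genes most like Trib3 over the 12 tumours were Atp6v1h and Nip7 (r = 0.89 each), Riox1 (0.86), Sesn2 and Wdcp (0.85 each). Those most like Hspa5 were Gadd45g (0.96), Prss57 (0.95), Prdx6 and Fstl3 (0.92 each) and Zfp330 (0.91). Without the 2 tumours where Hspa5 was farthest from its median, these 5 values were 0.65 to 0.85.

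Of 11 listed stress sensors, eIF2alpha kinases and phosphatase subunits of both pathways, 10 were tested. With any cisplatin 2 rose, where 6.51% of all genes were called. Atf6, the sensor and transcription factor, was at 31.8, 33.6 and 31.6 FPKM with vehicle, at 40.2, 40.3 and 42.4 with cisplatin, at 37.3, 25.5 and 31.6 with brivanib and at 42.1, 50.2 and 38.3 with the combination. Every tumour with cisplatin lay above every tumour without, which 3.45% of genes showed, and the difference was 0.40 ± 0.09 (limma adjusted p = 0.0300). Eif2ak2, the kinase PKR that senses double-stranded RNA, was 0.43 ± 0.10 higher with any cisplatin (adjusted p = 0.0324). Of 24 alternatives, Atf6 lost its call in 15 and Eif2ak2 in 16. In the other 7 comparisons 0 of the 10 passed.

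Among 13 tested partners and effectors of ATF4 and CHOP, Jdp2, a leucine zipper factor of the AP-1 family, rose with any cisplatin by 0.39 ± 0.09 (limma adjusted p = 0.0277), and it was the only call of this list over the 8 comparisons. A single call among 13, as among the 11 genes of the next list, is near the 6.51% of all genes. Jdp2 lost its call in 13 of 24 alternatives. The median of the list was -0.06 with any cisplatin against 0.05 over all genes. Of 11 genes for serine, one-carbon and amino acid synthesis, Phgdh, the enzyme before Psat1 on the path to serine, rose with any cisplatin. Phgdh was at 112, 108 and 115 FPKM with vehicle, at 145, 166 and 158 with cisplatin, at 126, 121 and 108 with brivanib and at 165, 129.7 and 126 with the combination. The difference was 0.36 ± 0.08 (adjusted p = 0.0244), and the lowest tumour with cisplatin (126.2) lay just above the highest without (126.0). Such separation upwards was seen for 3.45% of all genes. The call was lost in 9 of 24 alternatives.

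Of 8 amino acid transporters, 0 passed in any comparison, and the smallest p-values were those of Slc7a1, an arginine and lysine transporter (0.31 ± 0.09 with cisplatin against vehicle, limma adjusted p = 0.159), and Slc1a4, a neutral amino acid transporter (0.21 ± 0.09 with any cisplatin, adjusted p = 0.171). Of 20 cytosolic aminoacyl-tRNA synthetases, 0 passed, and the smallest were Hars (0.34 ± 0.09 with the combination against vehicle, adjusted p = 0.0816) and Wars (0.78 ± 0.23 with cisplatin against vehicle, adjusted p = 0.159). Wars is also known as an interferon target.

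The ER chaperones and folding enzymes were mostly higher in the brivanib group. Against vehicle, 1 of 21 passed, Pdia4, a disulfide isomerase. A further 10 had an unadjusted p under 0.05, all of them higher (11 of 21 in all, against 1045 of 14246 genes higher at that level), and 17 were above 0. The median was 0.25 against -0.01 over all genes. The count of 11 was 6 with equal totals without ribosomal-like features, 7 with the adipocyte score as covariate and 1 with voom on recovered fragments, where the median of all genes was -0.30. With voom without these features, chosen after seeing the data, it was 12. Pdia4 was at 34.4, 31.9 and 37.8 FPKM with vehicle, at 39.8, 34.3 and 32.1 with cisplatin, at 49.7, 50.6 and 53.4 with brivanib and at 34.3, 32.4 and 33.5 with the combination. The brivanib tumours lay above all others. Of all genes, 8.95% had brivanib tumours above vehicle without overlap, and 9.14% had combination tumours below brivanib. Pdia4 rose with brivanib by 0.55 ± 0.10 (limma adjusted p = 0.0142) and fell by 0.60 ± 0.10 in the combination against brivanib (adjusted p = 0.0119). The call against vehicle was lost in 8 of 24 alternatives, among them voom (0.30, adjusted p = 0.342), the muscle score (0.50, adjusted p = 0.149), the adipocyte score (0.51, adjusted p = 0.108) and equal totals (0.45, adjusted p = 0.0586), and the call against the combination in 4 of 24. In that comparison 16 of 21 were below 0, 6 of them at an unadjusted p under 0.05 (1240 of 14246 genes were lower at that level), with a median of -0.18 against 0.04 over all genes. In the interaction 0 of 21 passed (lowest adjusted p 0.116) and 17 were below 0.

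The genes of this list differed among themselves. Sdf2l1, an ER chaperone cofactor, was 0.59 ± 0.15 higher with brivanib and Calr, calreticulin, 0.48 ± 0.12, neither with an adjusted p under 0.05, while Dnajb9, a target of spliced XBP1, was at 11.4, 10.5 and 10.1 FPKM with vehicle and at 11.4, 6.42 and 12.5 with brivanib. Fibroblast markers moved with the chaperones: 5 of 10 rose with brivanib against vehicle and 6 fell in the combination against brivanib. With the fibroblast score as a covariate, an alternative chosen after seeing the data, 0 of 21 chaperones were higher at an unadjusted p under 0.05 in brivanib against vehicle, with a median of 0.15, and Pdia4 did not pass (0.24, adjusted p = 0.999). That score was 3.88 to 5.43 in the 9 other tumours, below all brivanib tumours, so it and the brivanib group cannot be told apart. Of 10 B cell and plasma cell markers, a secretory lineage, 6 had a mean under 0.1 FPKM.

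**Figure D4:**
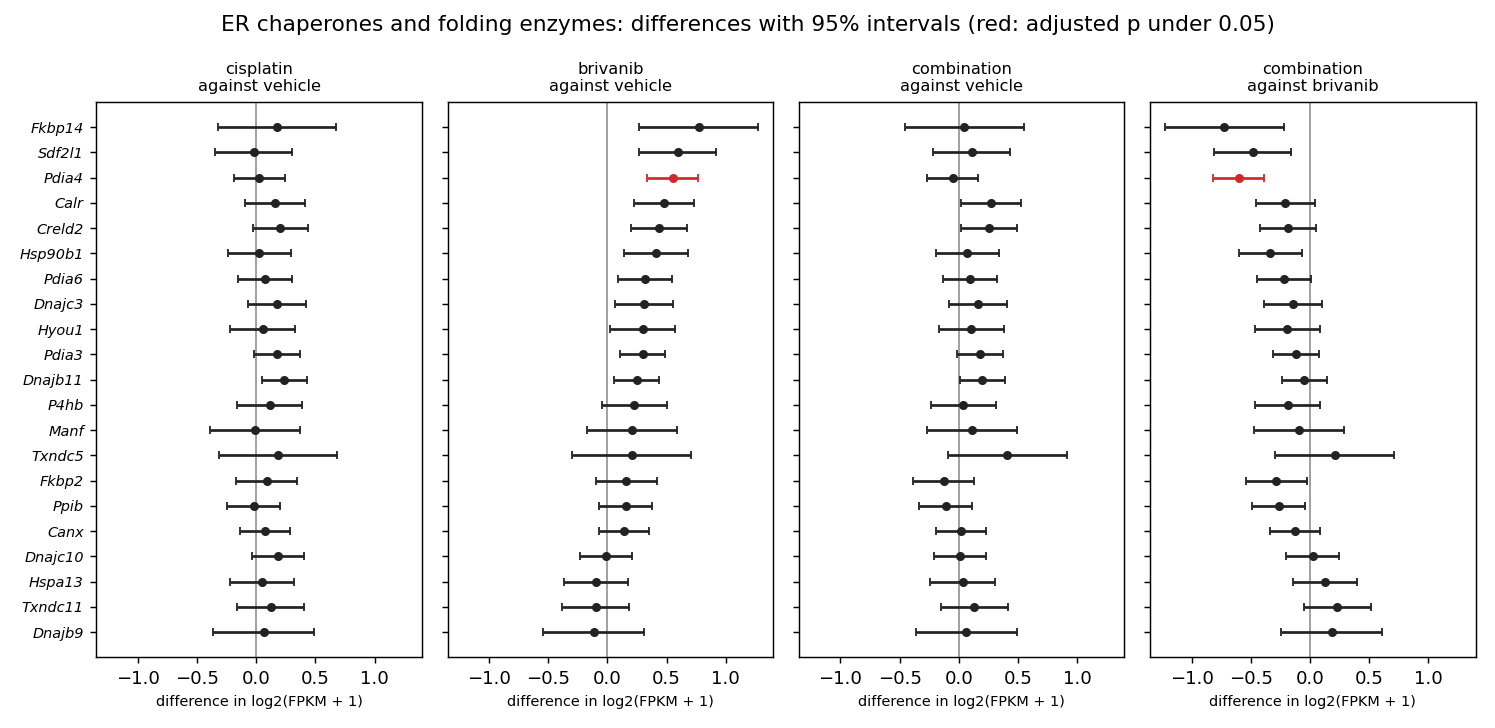
Differences in log2(FPKM + 1) (horizontal axes) of 21 ER chaperones and folding enzymes, ordered by brivanib against vehicle, with 95% confidence intervals from limma; red marks an adjusted p under 0.05. Pdia4 is red at 0.55 for brivanib against vehicle and at -0.60 for the combination against brivanib.

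Of 15 tested genes of ER-associated degradation, 0 passed in any comparison, and the smallest p-values were those of Edem1, a mannosidase-like lectin (0.24 ± 0.07 with any cisplatin, limma adjusted p = 0.0524), and Syvn1, the ubiquitin ligase HRD1 (0.26 ± 0.10, adjusted p = 0.132). Of 18 genes of ER translocation and vesicle traffic, 0 passed, and the smallest were Ssr2 (0.48 ± 0.14 with brivanib against vehicle, adjusted p = 0.131) and Sec61b (-0.34 ± 0.10 in the combination against brivanib, adjusted p = 0.0915), parts of the machinery that takes proteins into the ER.

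Stress lists outside the ER gave single calls. Of 14 cytosolic heat shock genes, Cryab, a small heat shock protein, rose with brivanib by 1.60 ± 0.28 (limma adjusted p = 0.0126), with the combination by 1.89 ± 0.28 (adjusted p = 0.0102) and with any brivanib by 1.40 ± 0.20 (adjusted p = 0.0144). Cryab was at 1.70, 2.66 and 2.47 FPKM with vehicle, at 6.29, 3.57 and 3.24 with cisplatin, at 10.6, 8.85 and 7.35 with brivanib and at 9.03, 17.8 and 8.18 with the combination. Muscle also expresses Cryab, and the muscle scores of brivanib tumours 2, 3 and 5 were 0.13, 4.12 and 3.88. Those of combination tumours 2, 3 and 4 were 1.96, 0.11 and 0.08. A fit with this score as a covariate was among the 24 alternatives, and the part of muscle in the result was not tested otherwise. The call was lost in 5, 3 and 5 of 24 alternatives in these comparisons. Of 11 genes of the mitochondrial unfolded protein response, Lonp1, a matrix protease, rose with any cisplatin by 0.25 ± 0.07 (adjusted p = 0.0499). Of 11 hypoxia genes, P4ha1, a collagen prolyl hydroxylase, fell with any cisplatin by 1.102 ± 0.30 (adjusted p = 0.0492), and 11 of 11 were below 0 in cisplatin against vehicle, with a median of -0.73. Pdia4 fell by 0.29 ± 0.07 with any cisplatin (adjusted p = 0.0322). These calls with any cisplatin, each 1 in its list against 6.51% of all genes, were lost in 21 of 24 alternatives for Lonp1, in 18 for P4ha1 and in 12 for Pdia4.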

How the data were processed

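RNA was sequenced from 12 mouse tumours in 4 groups of 3. The authors deposited FPKM values per transcript; per the labels' design text reads were aligned with Bowtie2 to mm10 and quantified with RSEM. The submitters' processing notes list Bowtie2 2.2.5 and RSEM 1.2.12, and also name HISAT, Bowtie and mm9. All 41 transcripts of the 10 members have the same coordinates in the GENCODE M21 annotation of GRCm38, the build of every position given. RSEM divides fragments between overlapping transcripts, and no strand setting is given in the sources used here. A further per-sample column, 1 in all, fitted no label and stayed unused, and 3 broken annotation lines were dropped.

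FPKM was summed by gene (53801 genes), and 14246 genes with a mean of at least 1 FPKM entered limma 3.58.1 (R 4.3.3), run on log2(FPKM + 1) with 1 mean per group over all 12 libraries, a mean-variance trend, two-sided tests and Benjamini-Hochberg adjustment over all genes tested at a threshold of 0.05. Fragments were recovered from the size of the FPKM steps, as 100% of values up to 100 fragments came out whole to within 0.01. The table lists transcript length, a deposited value used for that step only. Alternatives were the pseudocount, the filter, 3 scalings, voom, marker scores as covariates, the replicate block and each tumour left out in turn. The text names all members, up to 4 called genes per pathway list and comparison, the 2 genes with the smallest p in a list with no call, and the 5 genes most like Trib3 and Hspa5. Sdf2l1, Calr and Dnajb9 were chosen after their values were seen. The members and lists were chosen with earlier results of these data known. The procedure was tested on simulated data.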

Additional observations from a re-analysis of the deposited data

How the results depend on the processing

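Of the 8 comparisons, 6 had 0 members called in all 24 alternatives. For any cisplatin against none the count was 1 instead of 0, always Sesn2, with a mean of at least 5 FPKM and with the adipocyte score in the model, and 0 to 1 with a tumour left out. For the combination against brivanib it was 1, again Sesn2, with equal totals without ribosomal-like features, with voom on recovered fragments and with the adipocyte score, and 0 to 2 with a tumour left out. With the replicate block, the number of members called was 0 in all 8 comparisons. Same-numbered tumours had a median correlation of deviations of -0.01 over 13 pairs, with 2 over 0.1 and a highest of 0.21. The 41 other pairs had a median of 0.02, with 7 over 0.1 and a highest of 0.23. No pairing by number was visible, and whether the numbers mark something shared was not tested. The 8 differences whose interval excluded 0 kept their sign in all 192 alternative values, and 9 of these passed the threshold. Of the 72 others, 37 changed sign in at least 1 alternative. Pathway genes that passed kept their sign in all 288 values and lost the call in 129, from 3 of 24 alternatives for Cryab in the combination to 21 of 24 for Lonp1. Voom with ribosomal-like features kept moved the median of all genes to -0.30 for brivanib against vehicle and to 0.27 for the combination against brivanib, from -0.01 and 0.04, and the chaperone medians to 0.03 and 0.01; without those features they were 0.25 and -0.22. Chac1 was not tested at a mean of 5 FPKM. With 3 tumours a group, the unadjusted intervals around the members reach 0.23 to 0.63 on either side in a pairwise comparison. A member's difference smaller than the reach of its own interval could not be told from 0. Larger differences could also miss the adjusted threshold, so these widths are not a limit of detection. In the combination against brivanib, Sesn2 (0.68, limma adjusted p = 0.0644) and Ddit3 (0.76, limma adjusted p = 0.101) had intervals that excluded 0 and did not pass.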
